A study of Mus musculus with 75 samples.

Results

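RelA is the NF-kB subunit whose C-terminal end carries the transactivation domains TA1 and TA2. The comparison described here set the response to 8 h of tumor necrosis factor (TNF) in fibroblasts carrying RelA-dTA1, the form without TA1, against the response in cells carrying RelA-dTAD, the form without the transactivation domains, so that the constructs differ in whether TA2 is present while TA1 is missing from both. The members were chosen by construct and time: RelA-dTA1 and RelA-dTAD, each before TNF (0 h) and after 8 h, with 1 library from each of 2 sets per group, which makes 8 of the 75 libraries of the series. All 4 groups are mouse embryonic fibroblasts of strain C57BL/6 with the genotype p53-/-crel-/-rela-/-, and each received its RelA form in the retroviral vector pBABE-puro. The cells were held overnight in 0.5% serum and then given 10 ng/ml TNF. The labels name the constructs only as dTA1 and dTAD and do not give the residues removed, and they do not say whether the lines are pools or clones or whether the sets are separate cultures, so p-values measure the spread between these libraries, which may be technical. No cells were sampled at 8 h without TNF, so each response includes any change with time alone.

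As background, TNF activates the IkB kinase complex, which marks the inhibitory IkB proteins for degradation and lets dimers that contain RelA enter the nucleus and bind kB sites. TA1 and TA2 recruit coactivators to the genes so bound, and many of the genes encode chemokines, adhesion proteins and the pathway's own inhibitors. A RelA without both domains can still bind DNA but has lost the region through which it activates transcription.

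The 4 libraries of set 1 held 5309411 to 6915919 counted reads and the 4 of set 2 held 16806904 to 20322003, and levels below are CPM (read counts scaled to library size), given for set 1 and then set 2. Rela itself (ENSMUSG00000024927.7, chr19:5637483-5648130, mm10) stood at 849 and 1460 CPM before TNF and 1759 and 2617 at 8 h in RelA-dTA1, against 1113 and 1806 before and 3907 and 6717 at 8 h in RelA-dTAD. Lines given the empty vector (EV) stood at 16.7 and 15.5 CPM before TNF and 29.6 and 25.7 at 8 h, so both lines of the comparison carried Rela reads far above those of the knockout cells. Gene-level counts do not show which domain was removed. The 8 h rise of Rela was smaller in RelA-dTA1 in the main fit, with a log2 difference of -0.91 ± 0.30 (adjusted p = 0.0366, 0.317 without the set term and 0.0647 by DESeq2). The call was lost in 10 of 18 alternative fits. In the main fit the constructs' own transcript thus moved with the comparison in the direction of more RelA-dTAD, and the part of this in the results was not tested. The 10 fibroblast markers, among them collagens and Vim, summed to 43401 to 53847 CPM in the 8 libraries, while the 7 macrophage markers summed to 4.10 to 8.61 CPM, with Adgre1 at 0 reads in all 4 groups and Ptprc at 0 in 3 of them. Mitochondrial genes took 0.534 to 1.19% of the reads, and the entry Gm42418 took up to 0.00714% in set 1. In set 2 it took 0.143% in RelA-dTA1 at 0 h against 1.00 to 1.34% in the other 3 libraries. In bulk RNA, fewer cells of a type and less RNA per cell cannot be told apart.

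At 8 h the response with TA2 differed from the response without it in both directions. Of 13665 genes tested, 1306 (9.56%) had a higher response in RelA-dTA1 and 1391 (10.2%) a lower one (edgeR quasi-likelihood test with the set as a block, Benjamini-Hochberg adjusted p under 0.05), where the response is the log2 fold change from 0 h to 8 h and the difference is RelA-dTA1 minus RelA-dTAD. Differences are on the log2 scale and stand with their standard error. The differences exceeded 2-fold for 438 of the higher and 322 of the lower genes and 4-fold for 103 and 60. In each set taken alone, 1296 of the 1306 and 1387 of the 1391 had the same sign, against 9680 of all 13665 genes. The called genes were chosen on these same sets, so their agreement of sign is no separate test. Each construct changed on its own: 3629 genes (26.6%) rose and 3505 (25.6%) fell in RelA-dTA1, and 4349 (31.8%) rose and 4321 (31.6%) fell in RelA-dTAD. Before TNF few genes differed, with 12 genes (0.0878%) higher and 4 (0.0293%) lower in RelA-dTA1, and 597 at an unadjusted p under 0.05. At 8 h 2253 genes (16.5%) stood higher and 2589 (18.9%) lower in RelA-dTA1, and 1272 of the 1306 higher responses and 1361 of the 1391 lower ones were also differences of level at 8 h. Both comparisons use the same 8 h libraries, so with few differences at 0 h most of this overlap follows from the design. The fit without the set term called 428 higher and 384 lower. Leaving out set 2 of both constructs gave 304 and 248, leaving out the set 2 library of RelA-dTA1 at 8 h 646 and 667, and leaving out the set 2 library of RelA-dTA1 at 0 h 841 and 750.

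The higher and lower differences were made up differently. Of the 1306 higher genes, 286 rose in RelA-dTA1 without passing the test in RelA-dTAD, 192 rose in both lines and 97 rose in RelA-dTA1 and fell in RelA-dTAD. Another 341 fell in RelA-dTAD and did not pass in RelA-dTA1, and 384 fell in both. Of the 1391 lower genes, 742 rose in both lines, 446 rose in RelA-dTAD without passing in RelA-dTA1 and 60 rose in RelA-dTAD and fell in RelA-dTA1. The median response of the higher genes was 0.12 in RelA-dTA1 and -0.56 in RelA-dTAD, and that of the lower genes was 0.28 and 0.92. These medians describe genes chosen by the difference and carry no test.

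**Figure D1:**
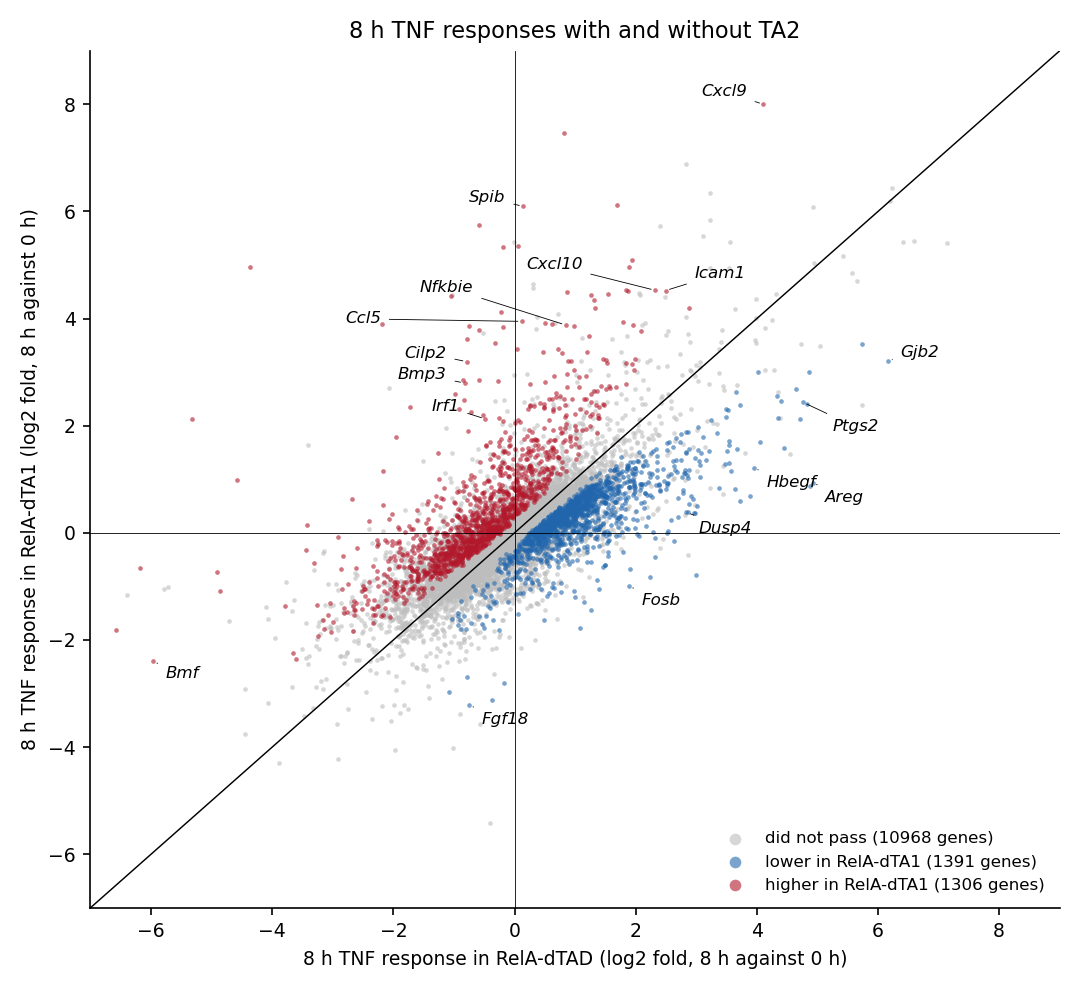
Each point is 1 of 13665 genes, with its 8 h TNF response in RelA-dTAD on the x axis and in RelA-dTA1 on the y axis (log2 fold change from 0 h, fitted over both sets, so genes with few reads can lie far out). The 1306 genes with a higher response in RelA-dTA1 (red) lie above the diagonal and the 1391 with a lower one (blue) below it; Cxcl9 and Ccl5 lie far above, Areg and Hbegf far below.

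The promoters of the genes were read from RefSeq (GRCm38.p6) as windows of 250 bases before to 50 bases after the start site, and 10435 of the 13665 tested genes (76.4%) matched one. The kB letters (GGG and TTCC with any 3 bases between, searched on both strands) stood in 6.25% of all tested windows, in 8.93% of the 1019 higher genes, in 12% of the 325 higher by over 2-fold and in 19.7% of the 71 higher by over 4-fold, against 6.47% of the 1066 lower genes. A pair of GAAA with any 2 bases between, the core of the element bound by interferon regulatory factors, was in 3.05% of all windows and 2.06% of the lower genes. It was in 7.26% of the higher genes, 12.6% of those higher by over 2-fold and 12.7% of those higher by over 4-fold. The AP-1 letters TGANTCA were in 4.79% of all windows, 6.38% of the higher genes, 8.31% of those higher by over 2-fold and 16.9% of those higher by over 4-fold. They were in 5.35% of the lower genes and 8.7% of the 230 lower by over 2-fold. The E-box letters CACGTG were in 10.2% of all windows, 8.15% of the higher genes and 11.6% of the lower genes. They were in 6.15% of those higher by over 2-fold and 7.04% of those higher by over 4-fold. Of those lower by over 2-fold 9.13% had them, also under the share of all windows. A match is a description of letters and not a binding site, and no test was made.

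Promoters of 5 genes are shown because their responses stand for the groups described next: an NF-kB inhibitor, a chemokine, a guanylate-binding protein and a serpin with a higher response in RelA-dTA1, and the urokinase receptor with a lower one. They were chosen after their values were seen, and each of the 5 windows holds a kB match. That is not typical, since 8.93% of the higher and 6.47% of the lower genes had one. The windows of Irf1, Cxcl9, Icam1, Tapbp, Areg and Dusp6, for example, hold no kB match. The windows are chr17:45555450-45555749, plus strand (Nfkbie), chr5:92348840-92349139, minus strand (Cxcl10), chr3:142496684-142496983, plus strand (Gbp5), chr12:104235897-104236196, plus strand (Serpina3g) and chr7:24462233-24462532, plus strand (Plaur), written 5′ to 3′ along the gene with matches to the kB, interferon-element and AP-1 letters, on either strand, in capitals. No match in these windows overlaps another.
Nfkbie: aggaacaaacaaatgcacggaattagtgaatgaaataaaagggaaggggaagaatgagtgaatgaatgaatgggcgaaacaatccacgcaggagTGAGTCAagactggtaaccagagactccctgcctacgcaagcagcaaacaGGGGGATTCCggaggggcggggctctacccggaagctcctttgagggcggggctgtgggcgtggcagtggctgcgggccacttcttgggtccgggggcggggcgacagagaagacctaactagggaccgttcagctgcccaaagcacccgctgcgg
Cxcl10: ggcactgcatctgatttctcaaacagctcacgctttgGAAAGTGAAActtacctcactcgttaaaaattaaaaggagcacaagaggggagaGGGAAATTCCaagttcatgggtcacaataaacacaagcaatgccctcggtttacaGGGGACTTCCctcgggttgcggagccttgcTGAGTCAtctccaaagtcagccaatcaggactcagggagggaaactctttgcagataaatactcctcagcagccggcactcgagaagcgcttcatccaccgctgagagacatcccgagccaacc
Gbp5: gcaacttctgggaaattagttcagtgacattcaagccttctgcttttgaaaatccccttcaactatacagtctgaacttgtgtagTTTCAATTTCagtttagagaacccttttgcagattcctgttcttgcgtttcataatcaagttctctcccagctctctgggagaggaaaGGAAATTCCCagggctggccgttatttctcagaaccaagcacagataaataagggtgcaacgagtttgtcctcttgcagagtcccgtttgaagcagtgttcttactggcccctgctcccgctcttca
Serpina3g: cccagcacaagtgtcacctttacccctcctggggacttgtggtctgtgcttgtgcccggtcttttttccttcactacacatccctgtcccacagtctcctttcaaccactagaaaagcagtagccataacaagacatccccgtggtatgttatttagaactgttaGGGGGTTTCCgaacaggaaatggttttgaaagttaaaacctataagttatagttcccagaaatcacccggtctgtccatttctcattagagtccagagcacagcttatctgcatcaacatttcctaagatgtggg
Plaur: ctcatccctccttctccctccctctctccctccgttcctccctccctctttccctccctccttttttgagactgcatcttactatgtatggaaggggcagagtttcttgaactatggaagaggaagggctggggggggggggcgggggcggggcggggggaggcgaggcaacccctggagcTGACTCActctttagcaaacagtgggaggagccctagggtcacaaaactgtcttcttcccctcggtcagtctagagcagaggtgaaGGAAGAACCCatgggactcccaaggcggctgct
The Nfkbie window holds a kB match that begins 106 bases before the start site and an AP-1 match at 156, and that of Cxcl10 holds kB matches at 159 and 104, an interferon-element match at 213 and an AP-1 match at 74 bases before it. Gbp5 has its kB match at 77 and its interferon-element match at 165 bases before the start site, Serpina3g a kB match at 85 before it, and Plaur an AP-1 match at 69 before and a kB match at 18 after it.

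Several inhibitors and subunits of the pathway itself responded more with TA2. For this list and those that follow, the shares over all genes tested were 9.56% higher and 10.2% lower. The lists were chosen with earlier results of these data known, so their shares are a description and no separate test. Among the 32 feedback and signalling genes of the NF-kB pathway, 15 had a higher response in RelA-dTA1 and 1 a lower one, with a median difference of 0.63 against -0.0075 over all genes tested, and 11 and 0 passed without the set term. Nfkbie (ENSMUSG00000023947.7, chr17:45555716-45563169), which encodes the inhibitor IkB-epsilon, stood at 6.42 and 11.7 CPM before TNF and 143 and 145 at 8 h in RelA-dTA1, against 5.96 and 3.71 before and 7.59 and 7.92 at 8 h in RelA-dTAD. Of the 8 libraries compared, it was high only in those of RelA-dTA1 at 8 h, and its response there exceeded that in RelA-dTAD by 3.03 ± 0.46 (adjusted p = 5.9e-05). The 3 h libraries are described below. Nfkbia, which encodes IkB-alpha, was at 43.3 and 44.1 CPM before TNF and 302 and 298 at 8 h in RelA-dTA1, against 31.9 and 30.5 before and 106 and 115 at 8 h in RelA-dTAD. It rose in both lines and more in RelA-dTA1, by 0.94 ± 0.22 (adjusted p = 0.00345). Tnip1, the A20-binding inhibitor, was at 53.3 and 56.7 CPM before TNF and 164 and 174 at 8 h in RelA-dTA1, against 59.8 and 50.5 before and 43.1 and 46.8 at 8 h in RelA-dTAD. The difference in response was 1.88 ± 0.17 (adjusted p = 5e-09). Its response was 1.62 ± 0.12 in RelA-dTA1 and -0.26 ± 0.13 in RelA-dTAD (adjusted p = 0.083). The kinase gene Ikbke rose in RelA-dTA1 by 0.44 ± 0.13 (adjusted p = 0.00349) and fell in RelA-dTAD by 0.93 ± 0.15 (adjusted p = 2.49e-06). Birc3, a ubiquitin ligase of the TNF receptor complex, differed by 1.33 ± 0.18 (adjusted p = 9.69e-07). Among the subunit genes, Nfkb2 differed by 0.92 ± 0.12 (adjusted p = 2.78e-07), Relb by 1.2 ± 0.24 (adjusted p = 0.000837, and 0.198 without the set term) and Nfkb1 by 0.42 ± 0.14 (adjusted p = 0.0397, and 0.114 without the set term or 0.57 without set 1). Rel gave 0.07 ± 0.19 (adjusted p = 0.849), and it is the c-Rel gene knocked out in these cells. Tnfaip3, which encodes the deubiquitinase A20, was at 212 and 165 CPM at 8 h in RelA-dTA1 against 70 and 49.1 in RelA-dTAD and did not pass (0.60 ± 0.36, adjusted p = 0.274). The lower gene was Map3k14, the kinase of the noncanonical pathway, at -0.76 ± 0.19 (adjusted p = 0.00277, and 0.355 without the set term or 0.403 without set 2), which was named after its value was seen.

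Several chemokine genes had a higher response with TA2. Of 19 chemokine ligands tested, 7 had a higher response in RelA-dTA1 (Cxcl9, Cxcl10, Cxcl11, Ccl5, Ccl9, Cx3cl1 and Cxcl16) and none a lower one, with a median difference of 0.84, and 6 of the 19 passed without the set term and 4 without set 2. Ccl5 (ENSMUSG00000035042.2, chr11:83525778-83530518), a T cell and monocyte attractant, stood at 22.9 and 27.2 CPM before TNF and 395 and 394 at 8 h in RelA-dTA1, against 16.7 and 15.4 before and 15.2 and 18.1 at 8 h in RelA-dTAD. The RelA-dTA1 libraries at 8 h lay far above the other 6 libraries, and the difference was 3.82 ± 0.29 (adjusted p = 4.28e-09). Cxcl9, a ligand of the T cell receptor CXCR3, went from 1.26 and 0.854 to 248 and 255 CPM in RelA-dTA1 and from 3.52 and 2.04 to 41 and 43.3 in RelA-dTAD. It rose in both lines, and the rise was larger with TA2 by 3.89 ± 0.36 (adjusted p = 5.57e-10). Cxcl10, another CXCR3 ligand, was at 43.1 and 53.7 CPM before TNF and 1042 and 1190 at 8 h in RelA-dTA1, against 44.6 and 53.1 before and 177 and 311 at 8 h in RelA-dTAD. The fitted response difference was 2.21 ± 0.24 (adjusted p = 8.76e-07). Cxcl11, the CXCR3 ligand with the fewest reads, had 210 reads in RelA-dTA1 at 8 h and 3 at 0 h, a ratio of 80.2 at equal depth (95% interval 27.1 to 392, counting error only), and 8 and 3 reads in RelA-dTAD. Its fitted response difference passed (adjusted p = 0.0252, and 0.0424 without the set term), but the call was lost in 6 of 18 alternative fits. Cx3cl1, the membrane-bound chemokine fractalkine, differed by 1.29 ± 0.27 (adjusted p = 0.00154, and 0.184 without set 2) and Ccl9 by 2.69 ± 0.48 (adjusted p = 8.07e-05, and 0.185 without the set term).

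Several attractants of neutrophils and monocytes did not pass. Ccl2 was at 49.7 and 55.5 CPM before TNF and 2214 and 1443 at 8 h in RelA-dTA1, against 29.3 and 18.3 before and 719.5 and 677 at 8 h in RelA-dTAD. Its response was 5.04 ± 0.26 in RelA-dTA1 and 4.95 ± 0.27 in RelA-dTAD, a difference of 0.094 ± 0.35 (adjusted p = 0.898), although the levels before and after TNF both lay above those of RelA-dTAD. Ccl7 (0.53 ± 0.36, adjusted p = 0.343), Cxcl1 (0.15 ± 0.65, adjusted p = 0.914), Cxcl5 (1.11 ± 0.61, adjusted p = 0.233) and Ccl20 (0.21 ± 2.01, adjusted p = 0.963) were not called either, and the SE of Ccl20 was the widest of these.

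Cytokine genes went both ways, in small numbers beside the 9.56% of all genes that were higher and 10.2% that were lower. Of 19 tested, Tnfsf10, Il15 and Il1rn had a higher response in RelA-dTA1 and Il11, Lif, Inhba, Clcf1 and Tnfsf11 a lower one, with a median difference of -0.27, and leaving out set 2 left 0 higher and 1 lower. Il1rn, the interleukin-1 receptor antagonist, was at 90.4 and 76.6 CPM before TNF and 84.9 and 104 at 8 h in RelA-dTA1, against 69.6 and 68.1 before and 27.1 and 36.3 at 8 h in RelA-dTAD. It gave 0.23 ± 0.17 in RelA-dTA1 (adjusted p = 0.272) and fell in RelA-dTAD, a difference of 1.27 ± 0.26 (adjusted p = 0.00135, and 0.101 without set 2). Lif, an interleukin-6 family cytokine, was at 4.05 and 3.87 CPM before TNF and 52.2 and 40.7 at 8 h in RelA-dTA1, against 2.75 and 2.67 before and 109 and 169 at 8 h in RelA-dTAD. TNF raised it in both lines, less with TA2, by -2.2 ± 0.51 (adjusted p = 0.00401, and 0.248 without set 2). Inhba, which encodes the activin A subunit, was at 108 and 76.6 CPM at 8 h in RelA-dTA1 against 345 and 279.6 in RelA-dTAD, a difference of -1.58 ± 0.26 (adjusted p = 0.000133). Il6 itself was at 7.41 and 6.98 CPM at 8 h in RelA-dTA1 against 6.16 and 6.19 in RelA-dTAD and did not pass (-0.28 ± 0.76, adjusted p = 0.853), and neither did Csf1, the macrophage colony stimulating factor (0.14 ± 0.21, adjusted p = 0.707).

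Of 22 adhesion and immune surface genes, 10 had a higher response in RelA-dTA1 and 3 a lower one, and 7 and 2 passed without the set term and 6 and 2 without set 2. Vcam1, an adhesion protein for leukocytes, was at 222 and 234 CPM before TNF and 1464 and 1582 at 8 h in RelA-dTA1, against 182 and 172 before and 472 and 474 at 8 h in RelA-dTAD. Between the lines the response differed by 1.32 ± 0.22 (adjusted p = 0.000215). Icam1, another such protein, was at 244 and 396 CPM at 8 h in RelA-dTA1 against 12.5 and 42.5 in RelA-dTAD, and both RelA-dTA1 values lay above both RelA-dTAD values (difference 2.03 ± 0.60, adjusted p = 0.0219, and 0.261 without the set term or 0.356 without the set 2 library of RelA-dTAD at 0 h). Tlr2, a receptor for bacterial lipoproteins, was at 20.5 and 14.7 CPM before TNF and 87.3 and 97.6 at 8 h in RelA-dTA1, against 15.3 and 9.68 before and 7.8 and 5.72 at 8 h in RelA-dTAD. It rose in RelA-dTA1 and gave -0.84 ± 0.38 in RelA-dTAD (adjusted p = 0.061), a difference of 3.32 ± 0.45 (adjusted p = 1.91e-05). Cd47, the signal that restrains phagocytes, differed by 1.1 ± 0.088 (adjusted p = 4.21e-11) and the interferon-gamma receptor chain Ifngr2 by 0.98 ± 0.13 (adjusted p = 6.3e-07). The lower genes were Tnfrsf12a, the receptor of TWEAK, at -1.8 ± 0.25 (adjusted p = 2.13e-05), Cd44 at -1.04 ± 0.16 (adjusted p = 5.12e-05) and Tlr4 at -0.49 ± 0.17 (adjusted p = 0.0332, and 0.574 without the set term or 0.695 without set 2). Sele, an endothelial selectin, was at 24.8 and 22.4 CPM at 8 h in RelA-dTA1 against 38.8 and 77.4 in RelA-dTAD and did not pass (-1.21 ± 0.71, adjusted p = 0.26).

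**Figure D2:**
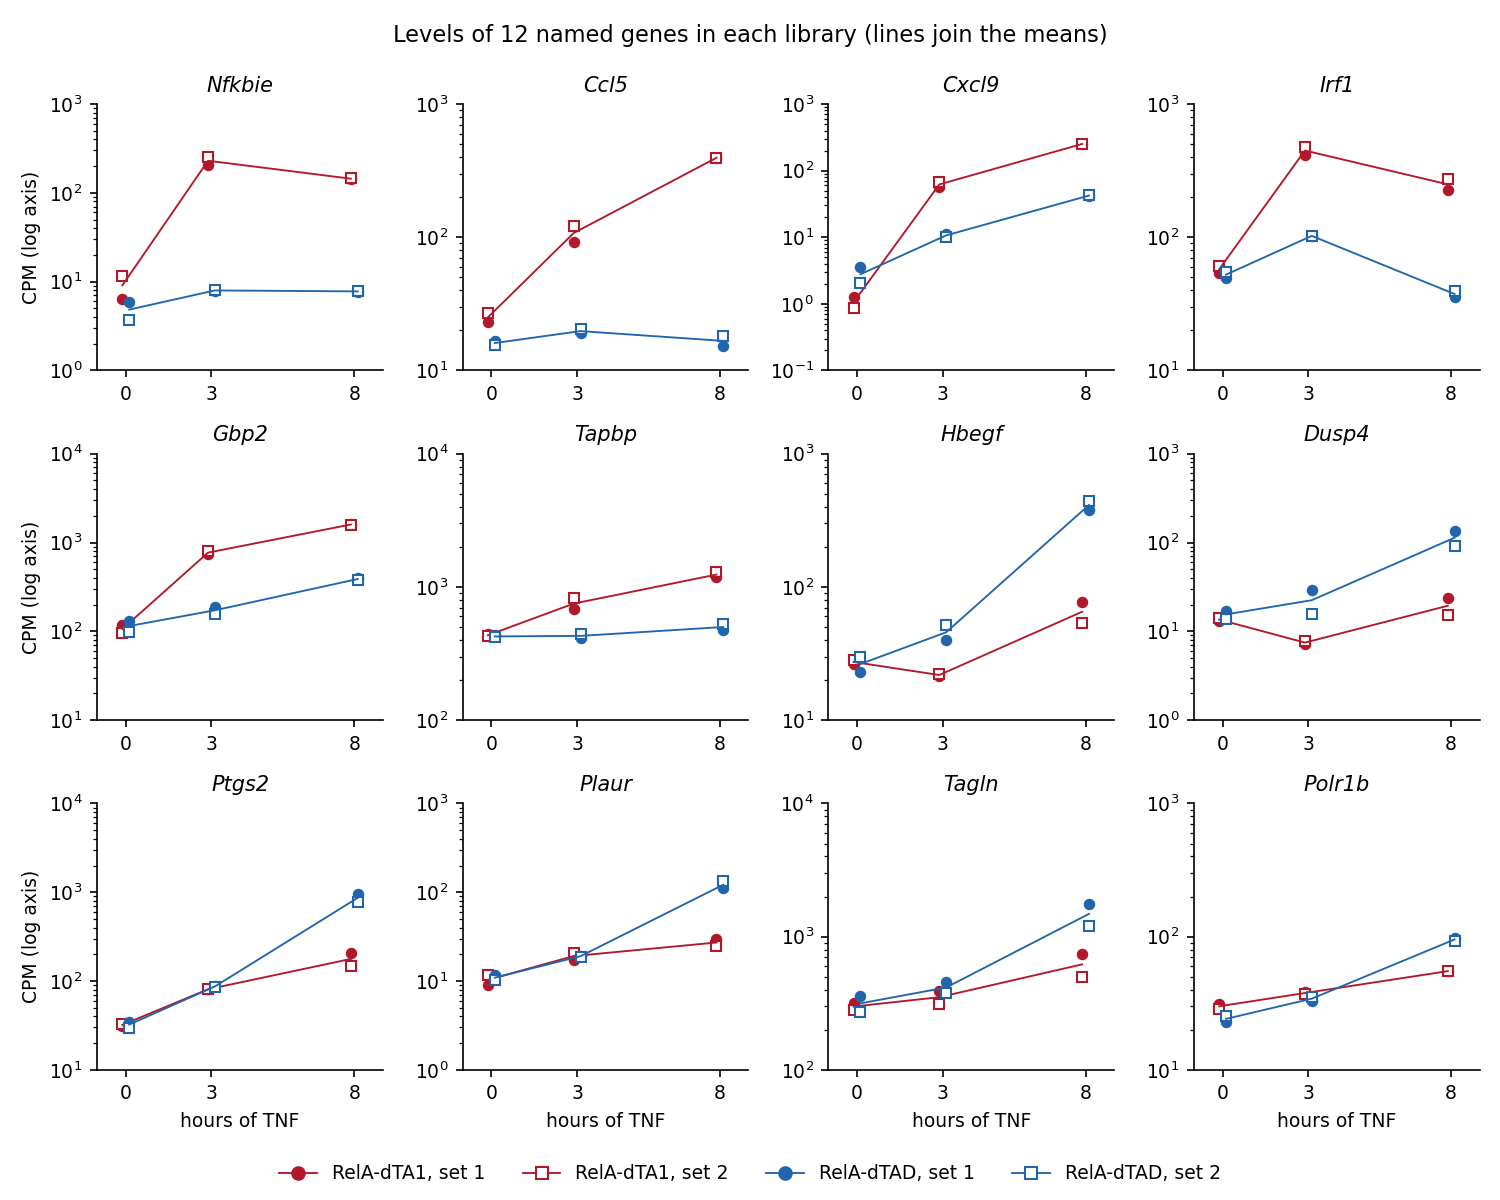
Level in CPM (log axis) of 12 named genes in each library of RelA-dTA1 (red) and RelA-dTAD (blue) at 0, 3 and 8 h of TNF; filled circles are set 1, open squares set 2, and lines join the means of the 2 libraries. The RelA-dTA1 libraries lie above the RelA-dTAD libraries at 8 h for Nfkbie, Ccl5, Cxcl9, Irf1, Gbp2 and Tapbp and below them for Hbegf, Dusp4, Ptgs2, Plaur, Tagln and Polr1b.

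Many interferon-linked genes responded more with TA2. Interferon regulatory and STAT factors had 8 of 14 tested genes higher in RelA-dTA1 and none lower, interferon response genes 28 of 43 and none lower, and interferon-inducible GTPases 13 of 17 and none lower. The median differences were 0.63, 1.03 and 1.67 against -0.0075 over all genes. Without the set term the counts were 2, 13 and 8, without set 1 they were 1, 10 and 9, and without set 2 they were 1, 5 and 3, with none lower in any of these. Irf1 (ENSMUSG00000018899.14, chr11:53770014-53778374), the transcription factor that drives many of these genes, stood at 54.3 and 60.8 CPM before TNF and 225 and 274 at 8 h in RelA-dTA1, against 49.5 and 55.2 before and 35.7 and 39.1 at 8 h in RelA-dTAD. It rose in RelA-dTA1 by 2.13 ± 0.15 (adjusted p = 6.16e-11) and fell in RelA-dTAD by 0.48 ± 0.17 (adjusted p = 0.0161), a difference of 2.61 ± 0.22 (adjusted p = 2.19e-08). Irf2, another regulatory factor, differed by 0.76 ± 0.19 (adjusted p = 0.00376, and 0.186 without set 2). Nlrc5, the coactivator of the MHC class I genes, differed by 1.08 ± 0.31 (adjusted p = 0.0178, and 0.206 without the set term or 0.315 without set 2).

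Among the response genes themselves, Gbp2, a guanylate-binding GTPase of cell-autonomous defence, was at 117 and 95 CPM before TNF and 1601 and 1590 at 8 h in RelA-dTA1, against 131 and 98.3 before and 401 and 376 at 8 h in RelA-dTAD. It rose in both lines, to 1590 to 1601 CPM with TA2 and to 376 to 401 without it, a difference of 2.15 ± 0.28 (adjusted p = 1.11e-05). Gbp5 was at 2.65 and 5.68 CPM before TNF and 116 and 187 at 8 h in RelA-dTA1, against 3.82 and 5.91 before and 11.9 and 24.4 at 8 h in RelA-dTAD. RelA-dTA1 minus RelA-dTAD came to 3.14 ± 0.38 (adjusted p = 2.42e-06). The GTPase gene Ifi47 differed by 1.87 ± 0.32 (adjusted p = 0.000214, and 0.0595 without set 2). Ifit2, a sensor of foreign RNA, was at 109 and 83.1 CPM before TNF and 371 and 409 at 8 h in RelA-dTA1, against 112 and 96.7 before and 106 and 113 at 8 h in RelA-dTAD. It rose in RelA-dTA1, and the 4 RelA-dTAD libraries lay between 96.7 and 113 CPM, a difference of 1.97 ± 0.18 (adjusted p = 4.4e-08). Samhd1, which depletes nucleotides, differed by 1.12 ± 0.093 (adjusted p = 8.86e-11), Cmpk2 by 1.61 ± 0.23 (adjusted p = 1.84e-05, and 0.0611 without set 2) and Ifit1 by 1.17 ± 0.35 (adjusted p = 0.0212, and 0.404 without set 2). Members of the Gbp, Ifit and Oas families share sequence, so counts can be split between paralogs.

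MHC class I antigen presentation was the list with the highest share of calls: 18 of 22 tested genes had a higher response in RelA-dTA1 and none a lower one, with a median difference of 1.31, and 10 passed without the set term and 10 without set 2. Psmb9, an immunoproteasome subunit, was at 3.77 and 5.93 CPM before TNF and 26.4 and 47.1 at 8 h in RelA-dTA1, against 3.82 and 7.38 before and 6.98 and 11.1 at 8 h in RelA-dTAD. This made a response difference of 2.27 ± 0.29 (adjusted p = 4.21e-07). Another such subunit, Psmb10, was at 190.2 and 183 CPM at 8 h in RelA-dTA1 against 50.7 and 56.8 in RelA-dTAD (1.86 ± 0.18, adjusted p = 5.16e-09). Tapbp, which encodes tapasin of the peptide-loading complex, stood at 439.9 and 428 CPM before TNF and 1182 and 1295 at 8 h in RelA-dTA1, against 433 and 417 before and 471 and 529 at 8 h in RelA-dTAD. It rose in RelA-dTA1 and gave 0.25 ± 0.12 in RelA-dTAD (adjusted p = 0.0683), a difference of 1.28 ± 0.16 (adjusted p = 3.71e-06). Its relative Tapbpl differed by 1.86 ± 0.18 (adjusted p = 1.95e-09) and the peptide-trimming protease Erap1 by 1.13 ± 0.13 (adjusted p = 8.09e-08). The peptide transporter Tap1 was at 204 and 299.5 CPM at 8 h in RelA-dTA1 against 58.1 and 108 in RelA-dTAD, a difference of 1.6 ± 0.29 (adjusted p = 0.000438, and 0.0851 without the set term or 0.0879 without set 2). B2m, the light chain, was at 1645 and 2279 CPM at 8 h in RelA-dTA1 against 981 and 1523 in RelA-dTAD, and here the sets differ by more than the lines at 0 h (difference 0.63 ± 0.20, adjusted p = 0.0308, and 0.537 without the set term). Class I heavy chain genes share sequence and are uncertain one by one. Cd74, the chaperone of class II molecules, was among the 12 largest differences, at 4.19 and 2.01 CPM before TNF and 22.4 and 17.5 at 8 h in RelA-dTA1, against 2.14 and 0.994 before and 0.616 and 0.732 at 8 h in RelA-dTAD. The responses differed by 3.7 ± 0.50 (adjusted p = 1.02e-06).

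Several complement and acute phase genes differed before TNF. Of the 12 genes higher in unstimulated RelA-dTA1, Saa3, C3, Hp, Lbp and Cp encode acute phase or complement proteins, Mmp9 and Mmp13 matrix proteases and Spint2 a protease inhibitor, and Ntn1, Igfbp2 and Col5a3 were also among them. C3 (ENSMUSG00000024164.13, chr17:57203970-57228136), the central complement component, was at 28.5 and 29 CPM before TNF and 133 and 157 at 8 h in RelA-dTA1, against 0.917 and 0.366 before and 0.616 and 0.865 at 8 h in RelA-dTAD. The levels of the lines did not overlap at either time, with an unstimulated difference of 5.77 ± 0.40 (adjusted p = 7.4e-09). Its response difference was 1.69 ± 0.98 (adjusted p = 0.25), and the RelA-dTAD libraries held 13 reads at 0 h and 16 at 8 h. Saa3, a serum amyloid, had 2143 reads at 8 h in RelA-dTA1 and 2 in RelA-dTAD, a ratio of 902 at equal depth (95% interval 249 to 7454, counting error only). Lbp, which binds lipopolysaccharide, was at 6.42 and 7.24 CPM before TNF in RelA-dTA1 and 1.53 and 0.942 in RelA-dTAD (2.64 ± 0.38, adjusted p = 0.000147), and haptoglobin, Hp, differed by 3.44 ± 0.48 (adjusted p = 4.73e-05). The 4 genes lower in unstimulated RelA-dTA1 (CT010467.1, Mir6236, Gm15564 and Gm23935) stood at 0 to 0.306 CPM in set 1, so their calls rest on set 2. Within set 2, the library of RelA-dTA1 at 0 h was also the one low in Gm42418, and the part of this in the calls was not tested. The unstimulated counts moved with the fit, from 12 and 4 to 200 and 139 when the spread came from the compared libraries alone and to 4 and 0 without the set term. Leaving out the set 2 library of unstimulated RelA-dTA1 left 1 and 0.

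In the response itself, 7 of 17 complement, acute phase and serpin A3 genes were higher in RelA-dTA1 and none lower (median difference 1.35), and 4 passed without the set term and 3 without set 2. Serpina3g, a serpin of activated cells, was at 39.6 and 44.5 CPM before TNF and 415 and 385 at 8 h in RelA-dTA1, against 39.6 and 35.6 before and 107 and 105 at 8 h in RelA-dTAD. The difference in response was 1.72 ± 0.13 (adjusted p = 2.31e-11). Steap4, a metalloreductase, was at 1.12 and 2.46 CPM before TNF and 26 and 58.1 at 8 h in RelA-dTA1, against 0.459 and 1.78 before and 1.85 and 2.86 at 8 h in RelA-dTAD. It rose in RelA-dTA1 and gave 0.87 ± 0.42 in RelA-dTAD (adjusted p = 0.0685), a difference of 3.63 ± 0.53 (adjusted p = 6.94e-06, and 0.298 without set 2). The paralogs Serpina3h and Serpina3i differed by 3.24 ± 0.56 (adjusted p = 4.97e-05, and 0.0991 without set 2) and 4.61 ± 0.92 (adjusted p = 0.000348, and 0.0938 without set 2) and may share reads with Serpina3g.

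Genes of cell death and survival did not move as 1 group: 11 of 26 were higher and 4 lower in RelA-dTA1, and 7 and 3 passed without the set term and 3 and 3 without set 2. Fas, the death receptor, was at 9.21 and 11 CPM before TNF and 97.3 and 94.9 at 8 h in RelA-dTA1, against 7.49 and 7.79 before and 17.4 and 13.2 at 8 h in RelA-dTAD. The fitted response difference was 2.28 ± 0.33 (adjusted p = 2.16e-05). Casp4, the inflammatory caspase, differed by 1.33 ± 0.22 (adjusted p = 1.88e-05, and 0.0797 without set 2), and Sod2, the mitochondrial superoxide dismutase that limits damage under TNF, by 1.34 ± 0.17 (adjusted p = 1.1e-06). Bmf, a BH3-only killer protein, went from 27.2 and 25.3 to 3.2 and 5.2 CPM in RelA-dTA1 and from 29.8 and 25.3 to 0.41 and 0.399 in RelA-dTAD. It fell in both lines, and more without TA2, by 3.56 ± 0.71 (adjusted p = 0.000851, and 0.214 without set 2). The lower genes were the survival genes Cflar, Mcl1 and Bcl2l1 and the BH3-only gene Pmaip1. Cflar, which encodes the caspase-8 inhibitor c-FLIP, was at 84 and 71.7 CPM before TNF and 118 and 112 at 8 h in RelA-dTA1, against 79.8 and 75.3 before and 186 and 173 at 8 h in RelA-dTAD. Between the lines the response differed by -0.64 ± 0.13 (adjusted p = 0.000547). Mcl1 was at 249 and 233 CPM at 8 h in RelA-dTA1 against 344 and 355 in RelA-dTAD, a difference of -0.58 ± 0.09 (adjusted p = 1.12e-05).

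EGF receptor ligands and genes of ERK output had lower responses in RelA-dTA1. The lower genes of this list include Il11 and Lif, which are also counted among the lower cytokine genes. Of 26 tested, 19 were lower and 1 (Egfr, the receptor, 0.44 ± 0.12, adjusted p = 0.00836, and 0.188 without the set term or 0.365 without set 2) higher, with a median difference of -1.28, and without set 2 there were 9 lower and none higher. Areg (ENSMUSG00000029378.5, chr5:91139599-91148432), the ligand amphiregulin, stood at 0.558 and 0.854 CPM before TNF and 2.2 and 1.29 at 8 h in RelA-dTA1, against 0.611 and 0.732 before and 13.5 and 25.1 at 8 h in RelA-dTAD. Of the 8 libraries compared, it was high only in those of RelA-dTAD at 8 h, a difference of -3.99 ± 0.57 (adjusted p = 2.75e-06, and the call was lost without set 2). Hbegf, another ligand of the receptor, was at 26.4 and 28.2 CPM before TNF and 76.5 and 53.7 at 8 h in RelA-dTA1, against 23.1 and 29.7 before and 379 and 445 at 8 h in RelA-dTAD. It rose in both lines and more without TA2, a difference of -2.74 ± 0.23 (adjusted p = 7.66e-09). The ligand gene Ereg differed by -2.43 ± 0.43 (adjusted p = 0.000369, and 0.169 from the 8 libraries alone). Dusp4, a phosphatase that switches off ERK and is transcribed on its activity, was at 13.1 and 14 CPM before TNF and 23.6 and 15.2 at 8 h in RelA-dTA1, against 17.1 and 13.9 before and 136 and 90.9 at 8 h in RelA-dTAD (difference -2.45 ± 0.23, adjusted p = 2.87e-09). Dusp6, another such phosphatase, was at 40.2 and 35.9 CPM at 8 h in RelA-dTA1 against 110.2 and 124 in RelA-dTAD (difference -1.73 ± 0.18, adjusted p = 1.34e-08). Dusp4 did not pass in RelA-dTA1 (response 0.39 ± 0.17, adjusted p = 0.0589), and Dusp6 rose in both lines. Dusp5 differed by -2.53 ± 0.37 (adjusted p = 3.71e-05) and Phlda1 by -1.25 ± 0.13 (adjusted p = 5.34e-09).

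Immediate early transcription factors rose in RelA-dTAD in 30 of 30 cases and in RelA-dTA1 in 24, beside 31.8% and 26.6% of all genes. Of the 30, 17 had a lower response in RelA-dTA1 and none a higher one (median difference -0.86). Without the set term 8 passed, without set 1 10 and without set 2 1. Fosl1, an AP-1 subunit, was at 7.12 and 11.3 CPM before TNF and 69.7 and 49.2 at 8 h in RelA-dTA1, against 5.35 and 8.84 before and 153 and 157 at 8 h in RelA-dTAD. RelA-dTA1 minus RelA-dTAD came to -1.79 ± 0.26 (adjusted p = 1.06e-05). Fosb, another subunit, was at 5.16 and 6.73 CPM before TNF and 4.0 and 2.9 at 8 h in RelA-dTA1, against 5.66 and 4.08 before and 12.3 and 19 at 8 h in RelA-dTAD. It fell in RelA-dTA1 and rose in RelA-dTAD, a difference of -2.88 ± 0.49 (adjusted p = 0.00014, and 0.525 without set 2). Csrnp1 differed by -1.27 ± 0.26 (adjusted p = 0.000726, and 0.316 without set 2) and Mafk by -0.75 ± 0.15 (adjusted p = 0.000418, and 0.432 without set 2). Egr1 (-1.18 ± 0.43, adjusted p = 0.0597), Fos (-1.18 ± 0.46, adjusted p = 0.077) and Atf3 (-0.54 ± 0.41, adjusted p = 0.403) did not pass.

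Cytoskeletal genes linked to serum response factor (SRF) had 15 of 25 lower and none higher in RelA-dTA1 (median difference -0.39), with 4 lower without the set term and 5 without set 2. Tagln, the actin-binding protein transgelin, was at 318 and 279.8 CPM before TNF and 737 and 501 at 8 h in RelA-dTA1, against 358 and 273 before and 1756 and 1208 at 8 h in RelA-dTAD. Both lines raised it, RelA-dTA1 less, by -1.19 ± 0.17 (adjusted p = 1.54e-05). Zyxin, Zyx, differed by -0.90 ± 0.12 (adjusted p = 4.92e-07, and 0.0909 without the set term) and the fibronectin receptor chain Itga5 by -0.55 ± 0.085 (adjusted p = 9.87e-06). Ctgf, a matricellular protein, differed by -2.41 ± 0.35 (adjusted p = 4.6e-05, and 0.0893 without set 2).

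Ribosome biogenesis genes rose in both lines in 28 of 28 cases, while 26.6% of all genes rose in RelA-dTA1 and 31.8% in RelA-dTAD. Of the 28, 16 had a lower response in RelA-dTA1 and none a higher one (median difference -0.47, median responses 0.95 in RelA-dTA1 and 1.42 in RelA-dTAD). Only 5 passed without the set term and 1 without set 2. Polr1b, a subunit of RNA polymerase I, was at 31.3 and 28.7 CPM before TNF and 55.2 and 54.9 at 8 h in RelA-dTA1, against 22.8 and 25.5 before and 97.7 and 92.9 at 8 h in RelA-dTAD. This made a response difference of -1.07 ± 0.13 (adjusted p = 1.52e-07). Nop58, a protein of the small nucleolar ribonucleoproteins, differed by -0.59 ± 0.12 (adjusted p = 0.000403, and 0.0796 without set 2) and Noc2l by -0.44 ± 0.11 (adjusted p = 0.0029, and 0.178 without set 2).

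Genes of plasminogen activation and prostaglandin synthesis were among those with lower responses in RelA-dTA1. Of 22 matrix protease and inhibitor genes, 7 were lower, among them Plaur, Plau, Plat, Timp1, Timp2 and Timp3, and Adamts1 and Adamts4 higher, and without the set term 3 were lower and 0 higher. Plaur (ENSMUSG00000046223.9, chr7:24462500-24475873), the urokinase receptor, stood at 9.07 and 11.6 CPM before TNF and 29.4 and 24.9 at 8 h in RelA-dTA1, against 11.6 and 10.2 before and 111 and 132 at 8 h in RelA-dTAD. The responses differed by -2.23 ± 0.19 (adjusted p = 1.67e-10). Urokinase itself, Plau, differed by -1.27 ± 0.18 (adjusted p = 1.37e-05, and 0.269 without the set term), and Timp1 by -0.89 ± 0.14 (adjusted p = 1.23e-05, and 0.0618 without set 2). Mmp3 (-0.59 ± 0.46, adjusted p = 0.418), Mmp9 (0.74 ± 0.33, adjusted p = 0.12) and Serpinb2 (-0.94 ± 0.68, adjusted p = 0.36) did not pass. Among 11 prostaglandin genes 4 were lower and 1 higher, and 2 and 1 passed without the set term. Ptgs2, the inducible cyclooxygenase, was at 31.3 and 32.9 CPM before TNF and 205 and 149 at 8 h in RelA-dTA1, against 34.9 and 29.8 before and 946 and 784 at 8 h in RelA-dTAD. The difference in response was -2.33 ± 0.25 (adjusted p = 7.12e-07). Ptgis, the prostacyclin synthase, differed by -1.11 ± 0.22 (adjusted p = 0.00043), and the receptor gene Ptgfr, which fell in both lines, by 1.31 ± 0.24 (adjusted p = 0.000137).

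Other lists held fewer calls, to be read beside the 9.56% higher and 10.2% lower over all genes. Of 25 cholesterol synthesis genes 6 were higher in RelA-dTA1 and none lower (median difference 0.36), with 1 passing without the set term. In RelA-dTAD 14 of the 25 fell, against 1 in RelA-dTA1. Over all genes 31.6% fell in RelA-dTAD and 25.6% in RelA-dTA1. Mvd, which makes isopentenyl pyrophosphate, was at 44.8 and 38.3 CPM at 8 h in RelA-dTA1 against 24.4 and 25.6 in RelA-dTAD (0.92 ± 0.22, adjusted p = 0.00298). Of 22 genes of the ATF4 and unfolded protein response 5 were higher and none lower, with 2 passing without the set term; Trib3, a pseudokinase target of ATF4, differed by 0.70 ± 0.15 (adjusted p = 0.000847). Of 35 collagen and matrix genes 2 were higher and 6 lower, and without the set term 1 and 1. Among these, Col8a1 differed by -0.76 ± 0.10 (adjusted p = 6.4e-07) and Thbs1, a matricellular inhibitor of angiogenesis, by -1.55 ± 0.14 (adjusted p = 3.92e-09, and 0.318 without the set term). Antioxidant genes gave 3 higher and 3 lower of 23, among them Sod3 (1.08 ± 0.20, adjusted p = 0.000138) and Hmox1 (-1.02 ± 0.19, adjusted p = 0.000434), and without the set term 1 and 1 passed. Glycolysis and hypoxia genes gave 1 higher (Hk1) and 2 lower (Slc2a1 and Vegfa) of 25, and none passed without the set term. Cell cycle genes gave 1 higher (Mcm6) and 1 lower (E2f8) of 38, shares below the 9.56% and 10.2% of all genes, and neither call passed without the set term. In the separate lines, 27 of the 38 fell in RelA-dTA1 and 23 in RelA-dTAD, beside 25.6% and 31.6% of all genes.

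**Figure D3:**
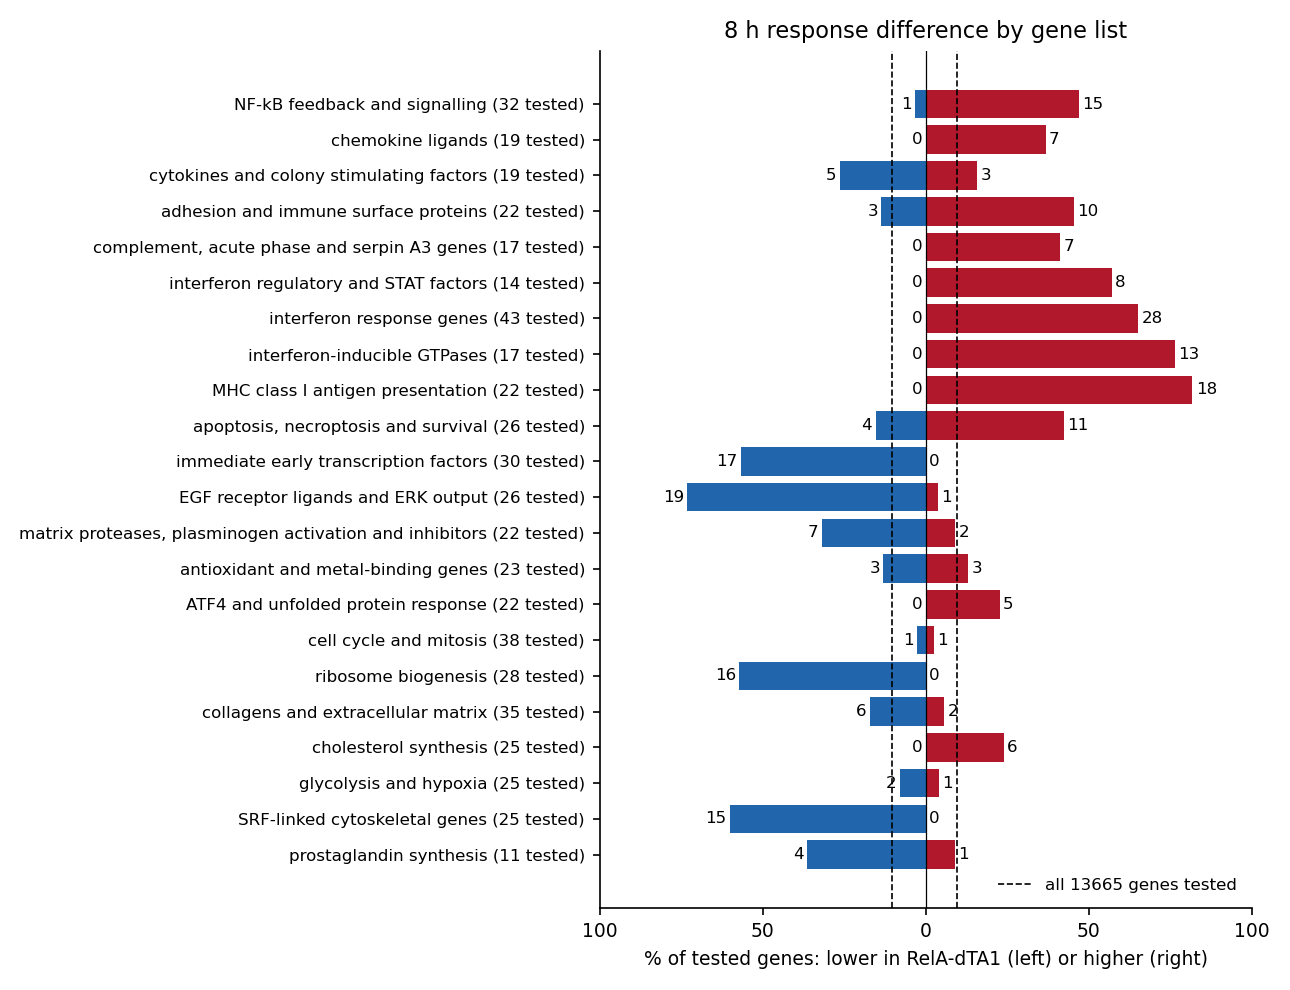
Share of the tested genes of each list (%) with a higher (right, red) or lower (left, blue) 8 h response in RelA-dTA1 than in RelA-dTAD, with the number of genes at the bar ends; dashed lines give the shares over all 13665 genes, 9.56% higher and 10.2% lower. MHC class I antigen presentation has 18 of 22 genes on the higher side and the EGF receptor and ERK list 19 of 26 on the lower side.

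The largest differences included genes outside these lists. Spib, an ETS factor of lymphoid cells, was at 0.279 and 0.251 CPM before TNF and 11 and 21.8 at 8 h in RelA-dTA1, against 0 and 0.366 before and 0.205 and 0.333 at 8 h in RelA-dTAD (5.95 ± 1.19, adjusted p = 0.000379, and 0.954 without set 2). Cd83, a surface protein of activated immune cells, had 138 reads in RelA-dTA1 and 1 in RelA-dTAD at 8 h, a ratio of 116 at equal depth (95% interval 20.5 to 4622, counting error only). Its fitted response difference passed (adjusted p = 0.00296, and 0.0362 without the set term), but the call was lost in 3 of 18 alternative fits. Icosl, a costimulatory ligand, was at 7.61 and 17.4 CPM at 8 h in RelA-dTA1 against 0.205 and 0.533 in RelA-dTAD (4.41 ± 1.12, adjusted p = 0.0067, and 0.237 without set 2). These 3 genes were at or under 1.54 CPM in unstimulated cells and in RelA-dTAD at 8 h. Bmp3, a bone morphogenetic protein family member, was at 13.3 and 8.24 CPM before TNF and 74.5 and 65.8 at 8 h in RelA-dTA1, against 14.4 and 8.84 before and 8.82 and 4.73 at 8 h in RelA-dTAD, and Cilp2, a cartilage matrix protein, went from 2.23 and 4.42 to 20.8 and 40.1 CPM in RelA-dTA1 and from 1.53 and 4.03 to 0.821 and 2.33 in RelA-dTAD. Both rose in RelA-dTA1 and fell in RelA-dTAD. The response of Bmp3 differed by 3.62 ± 0.23 (adjusted p = 2.89e-13) and that of Cilp2 by 3.98 ± 0.34 (adjusted p = 1.4e-10).

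On the lower side, Sema7a, a semaphorin, was at 5.86 and 9.9 CPM before TNF and 13.2 and 14.1 at 8 h in RelA-dTA1, against 3.21 and 9.42 before and 85.4 and 116 at 8 h in RelA-dTAD (-3.19 ± 0.29, adjusted p = 5e-09). Gjb2, the gap junction protein connexin 26, was at 1.12 and 2.56 CPM before TNF and 13.6 and 22 at 8 h in RelA-dTA1, against 1.07 and 3.14 before and 90.3 and 227 at 8 h in RelA-dTAD. The fitted response difference was -2.95 ± 0.38 (adjusted p = 8.69e-07, and 0.128 without the set term). The nucleotide receptor P2ry2 differed by -2.86 ± 0.65 (adjusted p = 0.00151, and 0.0829 without the set term or 0.31 without set 2), the retinaldehyde dehydrogenase Aldh1a3 by -2.59 ± 0.75 (adjusted p = 0.012, and 0.142 without the set term or 0.611 without set 2) and the tubulin gene Tuba8 by -2.6 ± 0.71 (adjusted p = 0.00812, and 0.0798 without the set term or 0.481 without set 2). Of the 8 libraries compared, these 5 genes were highest in those of RelA-dTAD at 8 h. Fgf18, a growth factor, went from 8.1 and 9.0 to 0.40 and 1.07 CPM in RelA-dTA1 and from 6.73 and 7.27 to 2.67 and 4.79 in RelA-dTAD, and so fell in both lines, more with TA2, by -2.47 ± 0.38 (adjusted p = 1.11e-05, and 0.0983 without set 2).

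The same comparison at 3 h, which shares the unstimulated libraries, held 512 genes higher (3.75%) and 162 lower (1.19%) in RelA-dTA1. Without the set term these counts were 184 and 16, without set 2 they were 86 and 5, and without the set 2 library of RelA-dTA1 at 3 h 282 and 47. A test of 8 h against 3 h, in which the unstimulated libraries cancel, found the difference more positive or less negative at 8 h in 995 genes (7.28%). It was less positive or more negative in 1502 (11%). Without the set term these counts were 264 and 439. They also fell without set 2 and without the set 2 library of RelA-dTA1 at 8 h. Among the panel genes, Ccl5 had the larger difference at 8 h (3.82 against 1.78 at 3 h, adjusted p of the change = 1.52e-05). In RelA-dTA1 it went from 92.8 and 122 CPM at 3 h to 395 and 394 at 8 h. Csf1 had a 3 h difference of 2.07 and an 8 h difference of 0.14 (adjusted p of the change = 1.52e-06). Its level in RelA-dTA1 was 689 and 825 CPM at 3 h and 718 and 639 at 8 h, and in RelA-dTAD it was 176 and 166 at 3 h and 577 and 566 at 8 h. The levels of the lines were thus closer at 8 h, where RelA-dTAD had risen. Ccl2 (1.9 at 3 h, 0.094 at 8 h, adjusted p of the change = 0.000302), Tnfaip3 (2.55 and 0.60, 9.51e-05) and Sele (2.53 and -1.21, 1.9e-06) also had the larger difference at 3 h. Cxcl9 (3.92 and 3.89) and Nfkbie (3.7 and 3.03) had large differences at both times, with no change called between them. Areg (-0.44 and -3.99) and Fosl1 (-0.057 and -1.79) were lower at 8 h and nearer 0 at 3 h, and the change was called for each (adjusted p = 2.24e-05 and 2.27e-06).

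**Figure D4:**
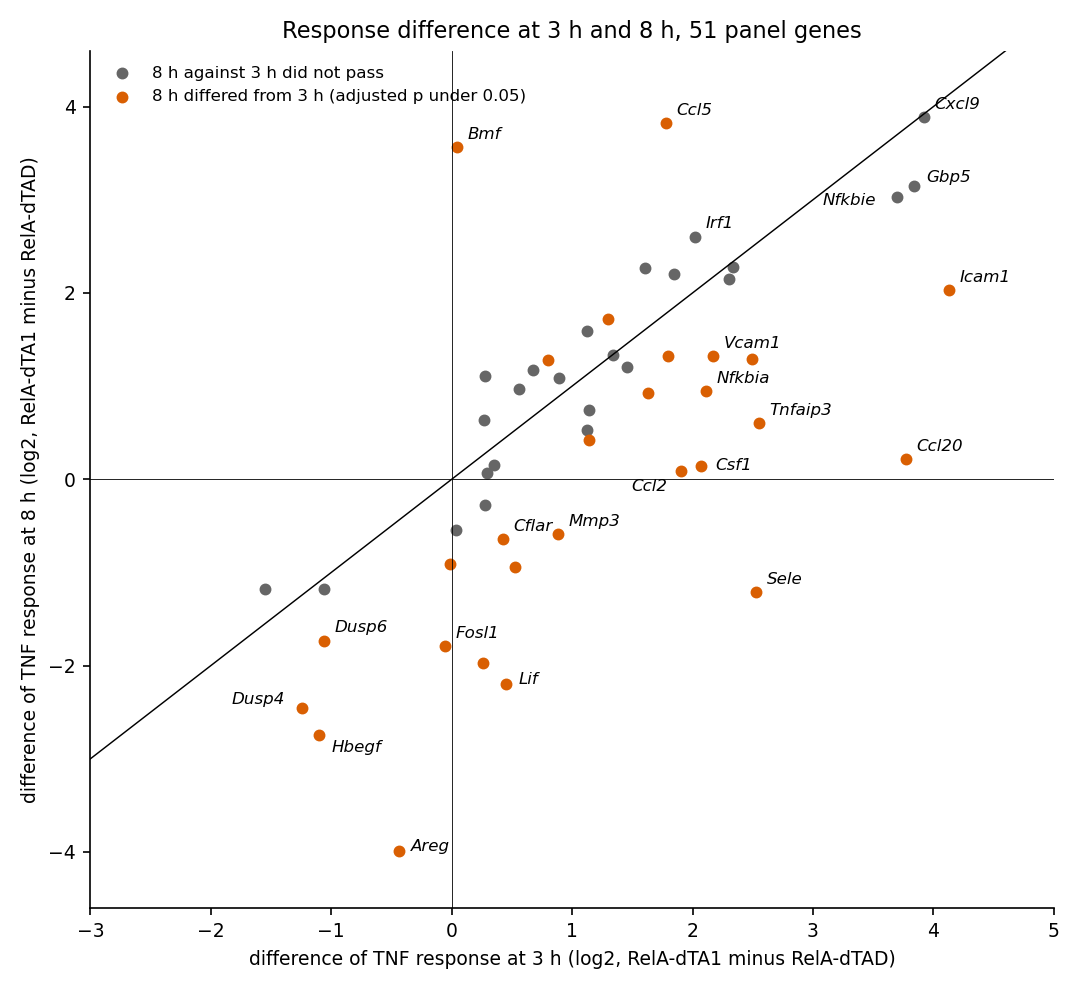
Difference of the TNF response (log2, RelA-dTA1 minus RelA-dTAD) at 3 h on the x axis and at 8 h on the y axis for 51 panel genes, without C3 and Saa3; orange points changed between the times at an adjusted p under 0.05, and the diagonal marks equal differences. Ccl2, Csf1, Tnfaip3, Ccl20 and Sele have 3 h differences of 1.9 to 3.77 and smaller ones at 8 h, while Areg, Fosl1 and Lif lie between -0.44 and 0.46 at 3 h and fall to between -3.99 and -1.79 at 8 h.

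The same genes were read in the wild-type and empty-vector lines. The 8 h response of wild-type RelA (RelA-WT) differed from that of RelA-dTA1, whose libraries both comparisons share, in 4 genes higher (0.0293%) and 4 lower (0.0293%), with 765 at an unadjusted p under 0.05, and these counts ran from 0 to 15 when single libraries were left out. The 4 higher were Cd74 (2.0 ± 0.34, adjusted p = 0.0041), C3 (1.47 ± 0.26, adjusted p = 0.0222), Ndnf and Cdon, and the 4 lower were the entries already given as near 0 in set 1. Among the set 2 libraries of the 4 constructs at 0 and 8 h, all 4 entries were lowest in RelA-dTA1 at 0 h. CT010467.1 is also among the 1306 higher genes (2.9 ± 0.31), with 0 CPM in the set 1 libraries of RelA-dTA1 and RelA-dTAD at 0 and 8 h. The RelA-WT and EV libraries entered the comparison of RelA-dTA1 with RelA-dTAD through the shared fit: its spread, set term, low-count filter and scaling. For RelA-WT against EV, 2072 genes (15.2%) had a higher and 2501 (18.3%) a lower 8 h response with RelA, and 1079 and 1321 without the set term. Of the 1306 genes higher in RelA-dTA1, 1103 (84.5%) were higher in RelA-WT than in EV and 1 was lower, and of the 1391 lower genes 1242 (89.3%) were lower and none higher. The median responses of the 1306 genes were -0.70 in EV, -0.56 in RelA-dTAD, 0.12 in RelA-dTA1 and 0.18 in RelA-WT. For the 1391 genes they were 0.95, 0.92, 0.28 and 0.17 in the same order. At 8 h Ccl5 was at 608 and 388 CPM in RelA-WT and 5.59 and 5.6 in EV, while Hbegf was at 36.5 and 35.1 CPM in RelA-WT and 587 and 643 in EV. Cxcl9 was at 1.16 and 0.528 CPM in EV and 225 and 191 in RelA-WT, and its RelA-dTAD libraries lay between these.

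**Figure D5:**
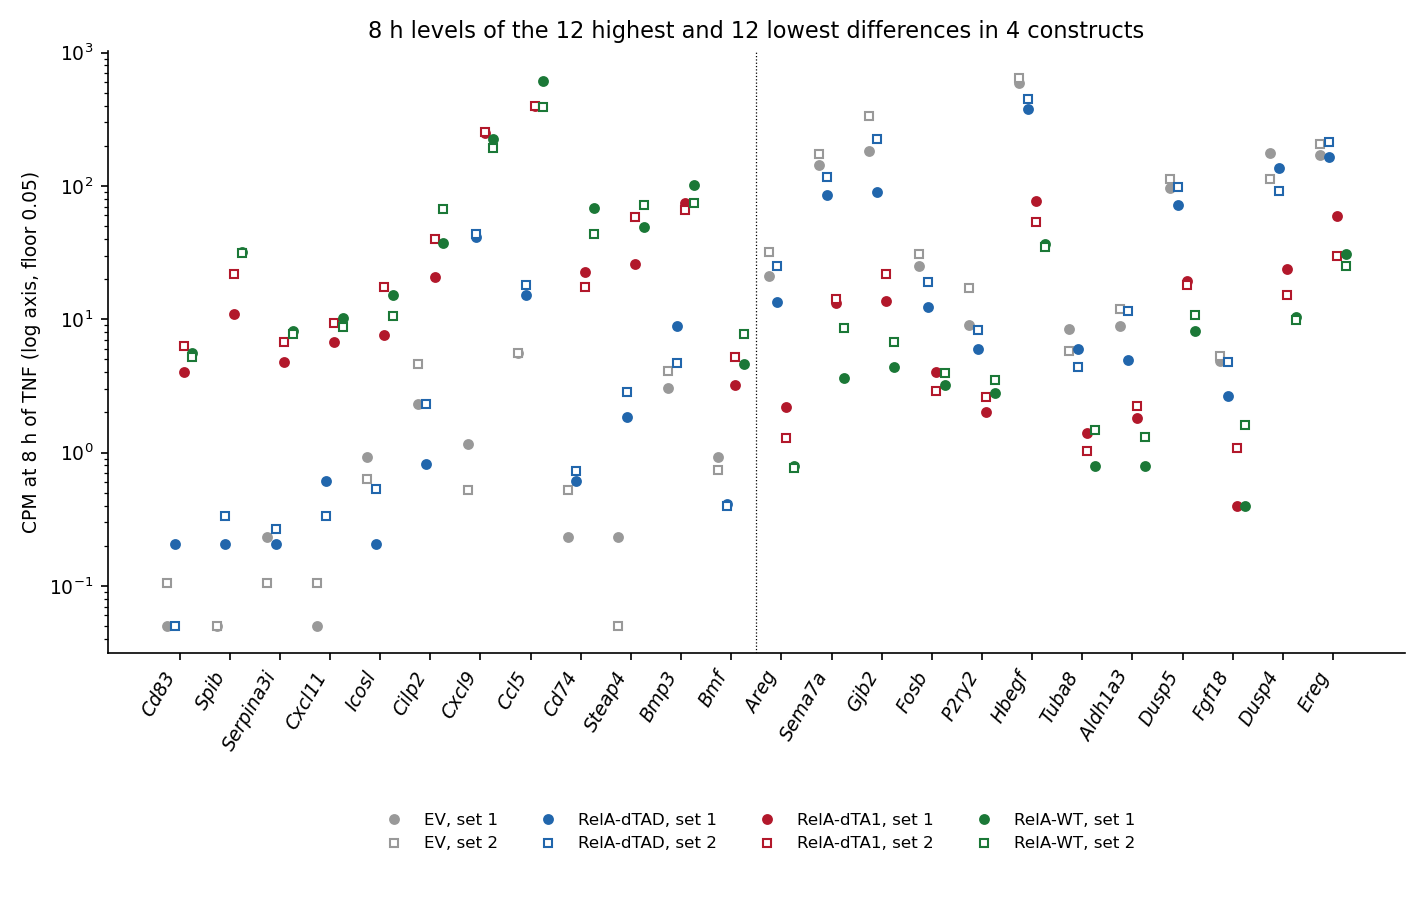
CPM at 8 h of TNF (log axis; values under 0.05 are drawn at 0.05) of the 12 genes with the highest and the 12 with the lowest response difference, left and right of the dotted line, in EV (grey), RelA-dTAD (blue), RelA-dTA1 (red) and RelA-WT (green), 1 point per library. For Cd74, Ccl5, Hbegf and Dusp4 the RelA-dTA1 points lie nearer to those of RelA-WT than those of RelA-dTAD and EV do; Cd74 is at 17.5 to 22.4 CPM in RelA-dTA1 and 43.6 to 67.7 in RelA-WT.

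Markers of the cells and of other cell types were compared in the same way, beside 9.56% higher and 10.2% lower over all genes. The fibroblast list had 2 of 10 markers higher (Pdgfra and Pdgfrb) and 2 lower (Thy1 and Vim) in RelA-dTA1, and without the set term 1 and 1 passed. Pdgfra differed by 0.89 ± 0.26 (adjusted p = 0.0197, and 0.121 without the set term or 0.275 without the set 2 library of RelA-dTA1 at 8 h) and Vim by -0.59 ± 0.12 (adjusted p = 0.000811, and 0.28 without the set term). Pdgfrb, the receptor chain for platelet-derived growth factor, was at 387 and 373 CPM before TNF and 291 and 301 at 8 h in RelA-dTA1, against 352 and 358 before and 152 and 181 at 8 h in RelA-dTAD. It fell in both lines, less with TA2, by 0.73 ± 0.10 (adjusted p = 2.01e-06). Thy1 differed by -1.05 ± 0.17 (adjusted p = 0.000111). Of the neural list, Nes, an intermediate filament of progenitor cells, was at 35.3 and 44.6 CPM before TNF and 109 and 89.8 at 8 h in RelA-dTA1, against 35.6 and 43.9 before and 459 and 418 at 8 h in RelA-dTAD. Between the lines the response differed by -2.18 ± 0.29 (adjusted p = 1.25e-05). The 4 neural markers summed to 536 to 599 CPM in RelA-dTAD at 8 h against 192 to 255 in the other groups, and Nes alone made up most of the larger sum. As a list they did not rise together: 1 of the 4 rose and 1 fell in RelA-dTAD, and 1 rose and 2 fell in RelA-dTA1. Krt18 was lower (-2.14 ± 0.46, adjusted p = 0.000807, and 0.29 without the set term) at levels of at most 6.26 CPM. None of the 3 macrophage, 2 endothelial, 1 muscle and 1 adipocyte markers tested passed. The summed levels of some of these lists were highest in RelA-dTAD at 8 h. The 4 endothelial markers summed to 50.7 to 57.5 CPM there against 31.6 to 44.7 in the other groups, the 4 muscle markers to 2.87 to 3.46 against 0.801 to 1.78 and the 3 adipocyte markers to 13.8 to 18.2 against 7.26 to 13.0. Myod1, Myog, Adipoq and Plin1 had no read in any of the 4 groups. Whether markers of other cells had a part in the group results was not tested.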

How the data were processed

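RNA of all 75 libraries was sequenced as single-end 50-base reads from 1 µg total RNA with a stranded mRNA kit and 12 PCR cycles, per the labels' protocols. The deposited values are raw read counts for 45706 gene entries. The submitters' processing notes name cutadapt 1.9.1, STAR, featureCounts 1.5.0, DESeq2 and mm10, and the strand setting is not given in the sources used here.

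The main test was edgeR 4.0.16 (quasi-likelihood, robust; R 4.3.3, limma 3.58.1) on the 40 libraries of RelA-dTA1, RelA-dTAD, wild-type RelA and empty vector, with 1 mean per construct and time, the set as a block and TMM scaling. Low-count filtering left 13665 genes, and p-values were Benjamini-Hochberg adjusted over them with a threshold of 0.05. The ± values beside log2 differences are standard errors. The set number comes from the labels. Libraries of the same set deviated together, with correlations of 0.466 to 0.641 over 6 pairs of the 4 groups, so the sets were taken as pairs. CPM used TMM factors over all 75 libraries. Intervals on read counts cover counting error only, since PCR copies were not marked.

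The named genes were the 12 highest and 12 lowest called differences with at least 5 CPM in 1 group and the same sign in both sets, a panel ordered by role, and up to 4 members with the smallest p of each of 29 lists. Genes outside this rule are Map3k14, Egfr, Cd44, Tlr4 and Ctgf, genes given without values, and those called before TNF or in RelA-WT against RelA-dTA1, and they were chosen after their values were seen. The members, lists and panel were chosen with earlier results of these data known. The 3 h comparison and RelA-WT against EV were added after the other comparisons. The tests were run on simulated data with known changes. Promoter windows came from RefSeq (GRCm38.p6). Alternatives were DESeq2 1.42.0, its size factors, other filters, other sets of libraries for the spread, other block terms, and leaving out libraries or sets. Tables and figures used Python 3.11.15. Results for some genes are not reported here.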

Additional observations from a re-analysis of the deposited data

Results flagged for a closer look

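For 9 of the named genes the 8 h response rose in 1 construct and fell in the other, each past the test of its own line, and the difference between the constructs was itself tested by the edgeR fit. The response was higher in RelA-dTA1 than in RelA-dTAD for Cilp2 (log2 difference 3.98), Bmp3 (3.62), Irf1 (2.61), Ikbke (1.37) and Fth1 (0.559), a ferritin subunit. It was lower for Fosb (-2.88), E2f8 (-1.13), a repressor of the cell cycle, Ptgs1 (-0.919), the constitutive cyclooxygenase, and Vim (-0.591), the fibroblast intermediate filament. Groups of 2 libraries are too small for a test of a single library against the rest. Without the set term the difference did not pass for Fth1 (adjusted p = 0.117, against 0.000169 with it), E2f8 (0.552 against 0.000636), Ptgs1 (0.294 against 0.000469) and Vim (0.280 against 0.000811), by the same edgeR test. Fosb did not pass without set 2 (adjusted p = 0.525, against 0.00014 with both sets).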

How the results depend on the processing

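The replicate block, the term for the set, moved many of the counts. Without it the 8 h response difference had 428 genes higher and 384 lower, in place of 1306 and 1391. RelA-dTA1 then fell in 2086 genes, the unstimulated lines differed in 4 and 0, the 8 h levels in 1190 and 1263, the 8 h against 3 h comparison in 264 and 439, RelA-WT against RelA-dTA1 in 0 and 0, the 3 h comparison in 184 and 16, and RelA-WT against EV in 1079 and 1321 (higher, then lower). With a set term per construct the unstimulated lines gave 25 higher, and RelA-WT against RelA-dTA1 gave 10 and 7. Without a filter on low counts these comparisons gave 67 and 23, and 27 and 65. With the spread from the compared libraries alone the 8 h difference had 881 lower, the unstimulated lines 200 and 139, RelA-WT against RelA-dTA1 1 higher, and the 3 h comparison 835 and 372. DESeq2 called 0 genes lower in unstimulated RelA-dTA1.

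Leaving out single libraries or a whole set of the compared constructs, where a lone library is assumed to vary like the other groups, gave 304 to 1456 higher and 248 to 1535 lower for the 8 h difference. The ranges were 2747 to 3211 and 2368 to 2868 for the response of RelA-dTA1, 3320 to 4064 and 2846 to 3934 for RelA-dTAD, 1 to 15 and 0 to 5 before TNF, and 840 to 2378 and 980 to 2483 for the 8 h level. They were 157 to 1224 and 271 to 1588 for 8 h against 3 h, 0 to 15 and 0 to 15 for RelA-WT against RelA-dTA1, 86 to 539 and 5 to 149 at 3 h, and 1055 to 2121 and 1033 to 2237 for RelA-WT against EV. Of 124 named genes that passed, 87 passed without the block and 56 under all 18 alternatives, and none changed sign. The causes were not tested. Set 1 held fewer reads than set 2, which limits genes with few reads there.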

Other observations

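Set 2 also holds single libraries of 2 further constructs built on RelA-dTA1, labelled RelA-TA2_CI-dTA1 and RelA-TA2_CI_S467A-dTA1, whose changes in TA2 the labels give only by these names. With 1 library per group there is no test, and the genes below were chosen with the RelA-dTA1 and RelA-dTAD libraries of the same set, so the values are a description. Over the 1306 genes with a higher response in RelA-dTA1 the median 8 h response in set 2 was 0.18 in RelA-dTA1, -0.23 in RelA-TA2_CI_S467A-dTA1, -0.32 in RelA-TA2_CI-dTA1 and -0.54 in RelA-dTAD. Over the 1391 lower genes it was 0.23, 0.59, 0.66 and 0.88 in the same order.

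At 8 h Ccl5 was at 394 CPM in RelA-dTA1, 52.9 in RelA-TA2_CI_S467A-dTA1, 53.7 in RelA-TA2_CI-dTA1 and 18.1 in RelA-dTAD. Irf1 was at 274, 97.1, 84.0 and 39.1 CPM in that order, and Cxcl9 at 255, 119, 89.3 and 43.3. For the lower genes, Hbegf was at 53.7, 221, 285 and 445 CPM, Dusp4 at 15.2, 47.1, 51.8 and 90.9, and Areg at 1.29, 7.54, 10.5 and 25.1. In each of these 6 genes the altered TA2 constructs lay between RelA-dTA1 and RelA-dTAD.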
